A study of Arabidopsis thaliana with 6 samples.

Results

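PRK (AT1G32060, chromosome 1) and RCA (AT2G39730, chromosome 2) are nuclear genes for 2 proteins that keep the Calvin cycle running in chloroplasts. They were taken as the probe sets whose only gene in the platform's probe table was PRK or RCA, which gave 1 probe set for each, 2 of the 16548 genes that had a probe set of their own. The arrays measured total RNA of cotyledons from 6-day-old wild-type Arabidopsis thaliana seedlings, raised in continuous light at 22 °C in MS liquid. The excised cotyledons then went through VISUAL, a method for turning mesophyll of cultured leaves into xylem and phloem cells. All groups had the same induction medium with the auxin 2,4-D at 1.25 mg/L, the cytokinin kinetin at 0.25 mg/L and bikinin at 10 µM, an inhibitor of GSK3-like kinases, and differed in the sugar, 5% glucose or 5% sucrose. With sampling at 0, 24 and 48 h this made 6 groups of 1 array, a number that sets how precise any value can be. Times follow the sample titles, while another label put glucose 24 h at 34 h and put glucose 48 h and all 3 sucrose arrays at 72 h.

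The Calvin cycle fixes carbon dioxide with the enzyme Rubisco and uses ATP and NADPH from the light reactions to make sugar phosphates. PRK, phosphoribulokinase, uses ATP to make ribulose-1,5-bisphosphate, the molecule to which Rubisco adds carbon dioxide. RCA, Rubisco activase, is an ATP-driven protein that pulls inhibitory sugar phosphates out of the Rubisco active site. PRK is under redox control by thioredoxins in the light. In the dark it is held inactive in a complex with glyceraldehyde-3-phosphate dehydrogenase and the small protein CP12. In leaves, nuclear photosynthesis genes are known to be repressed by a supply of sugar.

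Values are log2 signals, scaled so that each array had the same trimmed mean. A floor was set at the 40th percentile of all signals (4.90 on the log2 scale), and a signal below it was read as that bound. The median of the 23 background control probe sets, on the same scaled log2 scale, was 6.07 (glucose) and 5.51 (sucrose) at 0 h. In culture it was 4.64 and 5.15 in glucose at 24 and 48 h, and 4.51 and 4.42 in sucrose. Background was thus higher at 0 h, the time at which PRK and RCA were high, and its part in the results was not tested. As green tissue markers, all 6 measured Calvin cycle genes, PRK and RCA included, and all 7 measured light reaction genes lay above the floor on both 0 h arrays. So did 60.3% (glucose) and 60.9% (sucrose) of all non-control probe sets. The lowest 0 h signals were 7.27 among these Calvin cycle genes and 8.13 among the light reaction genes, above both background medians there. Whole cotyledons were measured, so fewer green cells and less RNA per green cell cannot be told apart.

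PRK was high before culture and near or below the limit of measurement afterwards. Its scaled log2 signal was 10.11 on the glucose 0 h array and 10.15 on the sucrose 0 h array. At 24 h it was 5.11 in glucose and 3.84 in sucrose, and at 48 h it was 5.25 in glucose and 4.40 in sucrose. The 4 cultured arrays all lay below both 0 h arrays, as they did for 29.2% of tested probe sets, and both sucrose arrays were below the floor. The glucose 48 h signal was close to that array's background control median of 5.15. PRK signals in culture are therefore read as upper bounds. In glucose PRK was at least 32.1-fold lower at 24 h than at 0 h and at least 29.1-fold lower at 48 h, each between 2 arrays. In sucrose it was at least 38.2-fold lower at each time.

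RCA was also lower on every cultured array, yet it stayed measurable on all of them. Its scaled log2 signal was 11.71 in glucose and 11.87 in sucrose at 0 h. At 24 h it was 8.67 in glucose and 7.28 in sucrose, and at 48 h it was 8.51 and 7.30. The 4 cultured arrays all lay below both 0 h arrays, as they did for 29.2% of tested probe sets. In culture RCA was lower in sucrose than in glucose at both times, as were 23.1% of tested probe sets. Between single arrays, RCA was 8.27-fold lower at 24 h and 9.23-fold lower at 48 h in glucose, and 24.1-fold and 23.8-fold lower in sucrose.

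**Figure D1:**
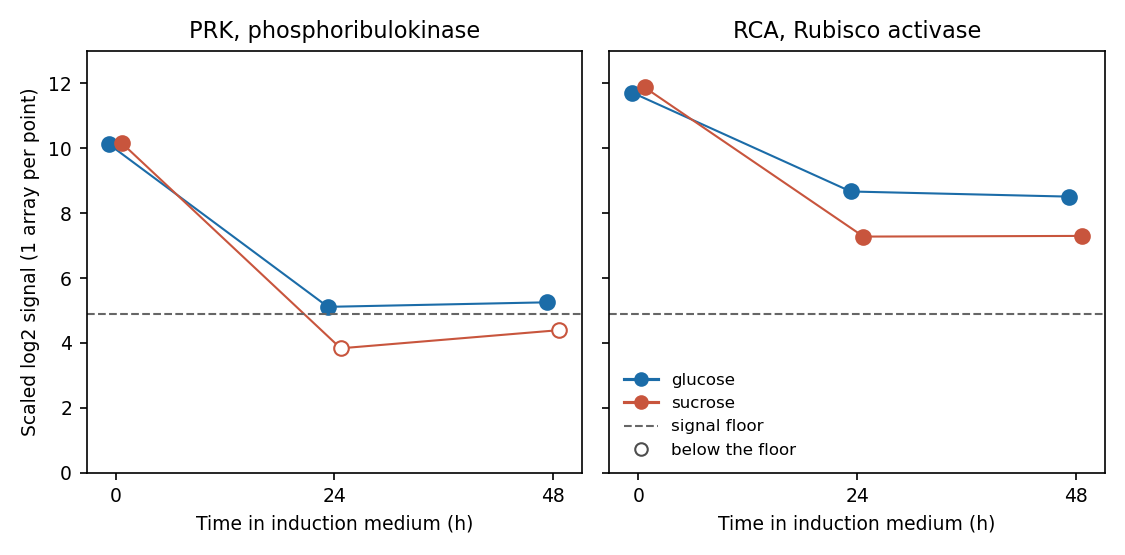
Scaled log2 signal of PRK and RCA against time in induction medium, 1 point per array, blue for glucose and red for sucrose, with the signal floor as a dashed line and open circles for signals below it. PRK drops from above 10.11 to 5.25 or less in both sugars, while RCA stays above the floor and lies higher in glucose (8.67 and 8.51) than in sucrose (7.28 and 7.30).

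Both genes passed the test of culture against 0 h, which pooled the sugars (limma over all 25826 tested probe sets, Benjamini-Hochberg at 0.05). At 24 h PRK fell, with a log2 difference of -5.13 ± 0.28, and RCA fell with -3.82 ± 0.19 (2 arrays at each time, adjusted p = 0.0018 in limma for each). Throughout, ± is the SE of the fit. Here its spread came from the 0 h pair and the change of the sugar difference from 24 to 48 h, moderated over all tested probe sets. At 48 h the differences were -5.06 ± 0.28 for PRK and -3.89 ± 0.19 for RCA (adjusted p = 0.00097 in limma for each). Falls were common: 19.8% of tested probe sets passed as lower at 24 h and 19.9% at 48 h, and 24.2% and 22.1% passed as higher. The sizes were less common, as 0.143% of tested probe sets had a lower log2 difference than PRK at 24 h and 0.906% had a lower one than RCA. In both sugars at once, 1.11% of tested probe sets were at least 10-fold lower at 24 h and 1.75% at 48 h. PRK was among them at both times. RCA was not, with 8.27-fold and 9.23-fold in glucose. For PRK these differences use the floor on the sucrose arrays and signals near background in glucose, so they are bounds on its fall.

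These calls needed both arrays of a time. Without the glucose or the sucrose 24 h array, the 24 h adjusted p of both genes was 0.084 or 0.054, and without the glucose or the sucrose 48 h array the 48 h adjusted p was 0.057 or 0.086, in fits where 0 probe sets passed. The differences themselves ranged from -5.20 to -5.06 for PRK and from -3.91 to -3.73 for RCA at 24 h over all 6 fits without 1 array.

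No further change passed after 24 h. Between 24 and 48 h PRK differed by 0.07 ± 0.28 and RCA by -0.07 ± 0.19 on the log2 scale, and neither passed (adjusted p = 0.953 and 0.899 in limma). For PRK both sucrose arrays were set at the floor, so only its near-background glucose signals could show a change. Without the floor the PRK difference was 0.35 (adjusted p = 0.696 in limma). With the floor, the 95% interval of the 48 h minus 24 h difference ran from -0.64 to 0.78 for PRK and from -0.54 to 0.40 for RCA. In this comparison 0% of probe sets passed in either direction by limma, with 18.9% at an unadjusted p under 0.05.

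The gap between the 2 genes was wider on every cultured array than at 0 h. RCA minus PRK, a log2 difference within each array read only for its change, was 1.60 in glucose and 1.72 in sucrose at 0 h. Since PRK in culture is an upper bound, the cultured values are lower bounds. They were at least 3.55 and 3.26 in glucose at 24 and 48 h, and at least 2.38 and 2.40 in sucrose, where PRK was set at the floor. Each was above both 0 h values. The mean shift of these values was 1.24 (two-sided exact permutation test over arrays, p = 0.133, 4 arrays against 2), and 0.133 is the smallest p that 15 splits of the arrays allow.

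The second question was whether the sugar mattered once culture had begun. RCA was lower in sucrose than in glucose by 1.39 on the log2 scale at 24 h (2.62-fold) and by 1.21 at 48 h (2.31-fold), each 1 array against 1. At 0 h the sucrose array was higher by 0.15. Over both times the sucrose minus glucose difference was -1.30 ± 0.19 (95% interval -1.77 to -0.83), and it did not pass over all probe sets (adjusted p = 0.242 in limma, unadjusted p = 0.00076). No probe set passed in this comparison, 0% in either direction, with 10.1% at an unadjusted p under 0.05. Tested at each time, the RCA difference had an adjusted p of 0.319 at 24 h and 0.215 at 48 h in limma, where 0% of probe sets passed and 11.4% and 17.3% had an unadjusted p under 0.05. By size alone, 0.802% of tested probe sets were at least 2-fold lower in sucrose at both times, and RCA was among them. With a single sugar term that also covered the 0 h arrays the difference was -0.81 (adjusted p = 0.495 in limma).

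For PRK the arrays give less on the sugars, because both sucrose arrays lay below the floor and the glucose signals, 5.11 and 5.25, were near background (4.64 and 5.15). No fold between the sugars is given for it. The fitted difference was -0.29 ± 0.28 (95% interval -1.0 to 0.42; adjusted p = 0.751 in limma). Without the floor it was -1.07 (adjusted p = 0.490 in limma), a value that compares signals at or near background. The part of background in that value was not tested. At 0 h the sucrose array was higher by 0.04. The change of the sugar difference from 24 to 48 h was -0.14 ± 0.19 for PRK and 0.18 ± 0.21 for RCA and did not pass (adjusted p = 0.848 and 0.819 in limma). Here too 0% of probe sets passed, with 13.4% at an unadjusted p under 0.05.

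**Figure D2:**
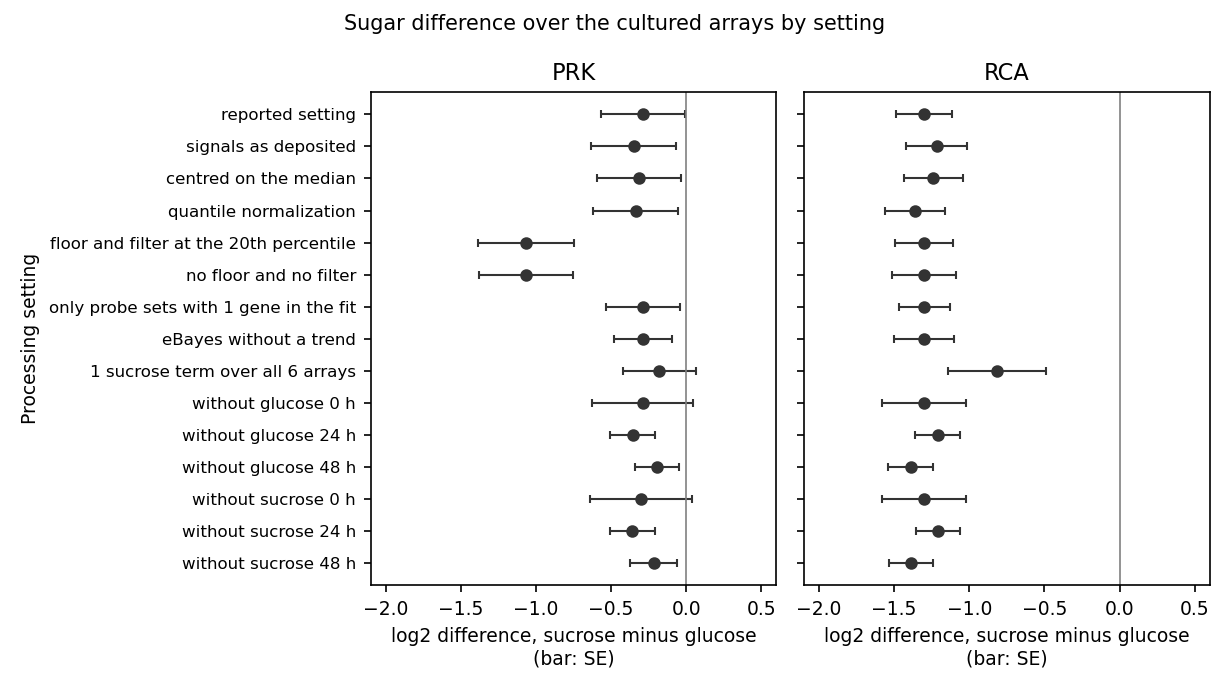
Sucrose minus glucose log2 difference of PRK (left) and RCA (right) over the cultured arrays, a line per processing setting or left-out array, with SE bars. RCA lies between -1.39 and -1.21 except with 1 sucrose term over all 6 arrays (-0.81), and PRK moves from -0.29 to -1.07 when the floor is lowered or left out.

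Other Calvin cycle genes were lower in culture too, with smaller differences than PRK. Of 27 genes in a Calvin cycle list, 6 had a probe set of their own, PRK and RCA included, and all 6 were tested. At 24 h 5 of the 6 fell and 1 did not pass. The median log2 difference, with PRK and RCA counted in, was -2.65 against 0.10 over all tested probe sets. The genes other than PRK and RCA ranged from -3.60 to -0.80. At 48 h all 6 fell, with a median of -2.72 against 0.13, PRK and RCA again counted in. The others then ranged from -4.06 to -1.06. Over all tested probe sets 19.8% passed as lower at 24 h and 19.9% at 48 h. Without the glucose or the sucrose 48 h array, 3 of the 6 passed at 24 h. SBPASE (AT3G55800), sedoheptulose-1,7-bisphosphatase, which like PRK works in the regeneration of the carbon dioxide acceptor, was 11.24 and 11.12 in glucose and sucrose at 0 h, 7.95 and 7.21 at 24 h, and 7.28 and 6.95 at 48 h. It fell, with log2 differences of -3.60 ± 0.22 at 24 h and -4.06 ± 0.22 at 48 h (adjusted p = 0.0018 and 0.00097 in limma). A plastid fructose-1,6-bisphosphatase gene, CFBP2 (AT5G64380), fell at both times (-1.71 ± 0.29 and -1.56 ± 0.29). A plastid phosphoglycerate kinase gene, PGK2 (AT1G56190), which acts in the reduction steps, fell too (-0.96 ± 0.19 and -1.54 ± 0.19). A ribose-5-phosphate isomerase gene, RPI4 (AT5G44520), differed by -0.80 ± 0.27 at 24 h (adjusted p = 0.064 in limma) and fell at 48 h (-1.06 ± 0.27). The Rubisco subunit genes, the plastid GAPDH genes and the CP12 genes of the list had no probe set of their own.

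Genes whose products assemble Rubisco or pass redox signals to the cycle fell in most cases. Of 22 such genes, 10 were tested. Over all tested probe sets 19.8% and 19.9% passed as lower at 24 and 48 h, and 24.2% and 22.1% as higher. Among the 10 genes, at both times 8 fell, 1 rose and 1 did not pass, with medians of -1.35 and -1.74. Without the glucose 0 h array, 5 passed as lower at 24 h. CBBY (AT3G48420), a phosphatase that clears a Rubisco inhibitor, fell (-4.1 ± 0.32 at 24 h and -3.93 ± 0.32 at 48 h). Its scaled log2 signals were 9.50 and 9.01 in glucose and sucrose at 0 h, 5.42 and 4.04 at 24 h, and 5.59 and 5.07 at 48 h, so the sucrose 24 h array was below the floor. TRXF2 (AT5G16400), a thioredoxin f of the kind that reduces PRK, fell (-3.69 ± 0.30 and -3.56 ± 0.30) and was below the floor on both sucrose arrays in culture. FTRB (AT2G04700), of the ferredoxin-thioredoxin reductase that feeds it, fell as well (-1.47 ± 0.28 and -1.72 ± 0.28). Among the Rubisco assembly factors, RAF2 (AT5G51110) fell at 24 h (-2.99 ± 0.29), as did BSD2 (AT3G47650; -1.16 ± 0.29). The chaperonin subunit gene CPN60B3 (AT5G56500) went the other way. It was 6.24 and 6.53 at 0 h and between 7.67 and 8.54 on the cultured arrays, and it rose by 1.98 ± 0.30 at 24 h and 1.45 ± 0.30 at 48 h (adjusted p = 0.0071 and 0.016 in limma). Its relative CPN60B2 (AT3G13470) differed by -0.26 ± 0.30 and -0.80 ± 0.30 and did not pass.

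Photorespiration recycles the product made when Rubisco takes oxygen in place of carbon dioxide. All 5 tested genes of its list of 15 fell at both times, with medians of -2.50 and -2.56. HPR1 (AT1G68010), hydroxypyruvate reductase, fell (-4.14 ± 0.21 at 24 h and -4.11 ± 0.21 at 48 h). PLGG1 (AT1G32080), the plastid glycolate and glycerate transporter, fell (-3.81 ± 0.25 and -4.63 ± 0.25). Of 17 genes for cytosolic enzymes that handle the same kinds of sugar phosphates, 4 were tested. At each time 1 fell, 1 rose and 2 did not pass, with medians of -0.23 and -0.29, beside 19.8% and 19.9% of all tested probe sets passing as lower. GAPC2 (AT1G13440), cytosolic GAPDH, rose by 0.54 ± 0.15 at 24 h and 0.77 ± 0.15 at 48 h, relative to the scaling. ALDH11A3 (AT2G24270), the non-phosphorylating GAPDH of the cytosol, fell (-3.14 ± 0.23 and -2.70 ± 0.23). The 7 tested light reaction genes all fell at both times, with medians of -3.79 and -3.94.

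**Figure D3:**
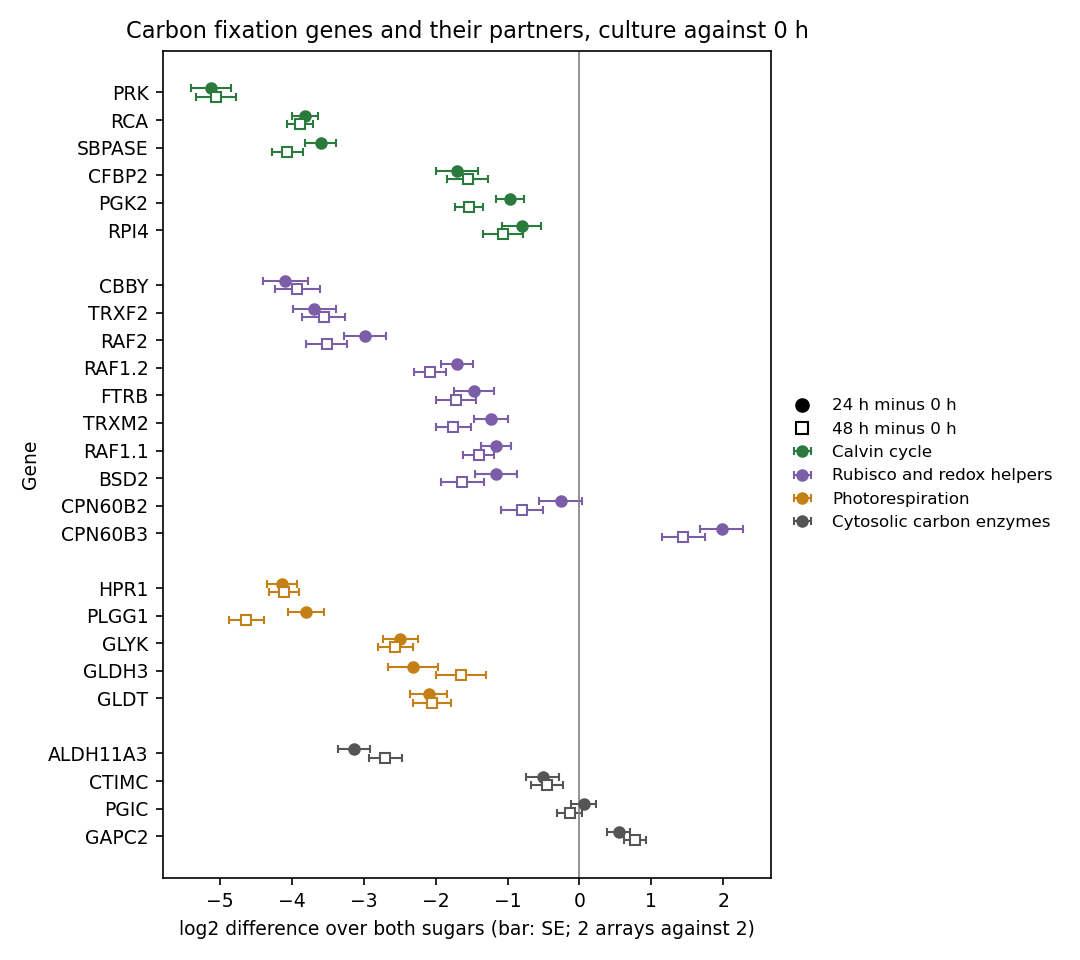
The log2 difference of each measured gene of 4 lists, 24 h (filled circles) and 48 h (open squares) minus 0 h, over both sugars with SE bars, coloured by list. Light reaction genes are not drawn. Of the genes drawn, PRK is lowest at 24 h (-5.13), and the genes of the first 3 lists lie left of 0 except CPN60B3 (1.98). The cytosolic genes other than ALDH11A3 lie between -0.51 and 0.77.

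The sugar difference of RCA (-1.30) was set beside those of the lists. Over the cultured arrays the median sucrose minus glucose log2 difference was -1.28 for the 7 light reaction genes and -0.66 for the photorespiration genes. For the Calvin cycle genes, RCA and PRK included, it was -0.46. It was -0.27 for the cytosolic genes, -0.23 for the Rubisco and redox helpers, -1.38 for 3 xylem vessel markers and 0.01 for all tested probe sets. A value as low as that of RCA was thus not particular to photosynthesis genes. None of these genes passed in that comparison. In the Calvin cycle list 5 of 6 genes were lower in sucrose at both times, beside 23.1% of all tested probe sets. Probe sets at the floor in both sugars count as not lower in that share. The 5 include RCA itself and PRK, which rests on the floor in sucrose and on signals near background in glucose. Also lower in sucrose at both times were 5 of 5 photorespiration genes, 4 of 4 cytosolic genes, 6 of 7 light reaction genes and 4 of 10 helpers. Every measured photorespiration, cytosolic and light reaction gene was already lower on the sucrose array at 0 h, with differences from -0.53 to -0.04. A cytosolic triose phosphate isomerase gene (AT3G55440) differed by -0.51 at 0 h, -0.52 at 24 h and -0.16 at 48 h. These counts therefore do not separate differences present at 0 h from those that arose in culture. PGK2 was higher in sucrose by 0.53 at 24 h and 0.46 at 48 h. RCA alone of the 6 was at least 2-fold lower in sucrose at both times. So were PLGG1 among the photorespiration genes, ALDH11A3 among the cytosolic genes and 4 of the 7 light reaction genes. SBPASE, measured above the floor on all 6 arrays as RCA was, differed by -0.74 at 24 h and -0.33 at 48 h.

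**Figure D4:**
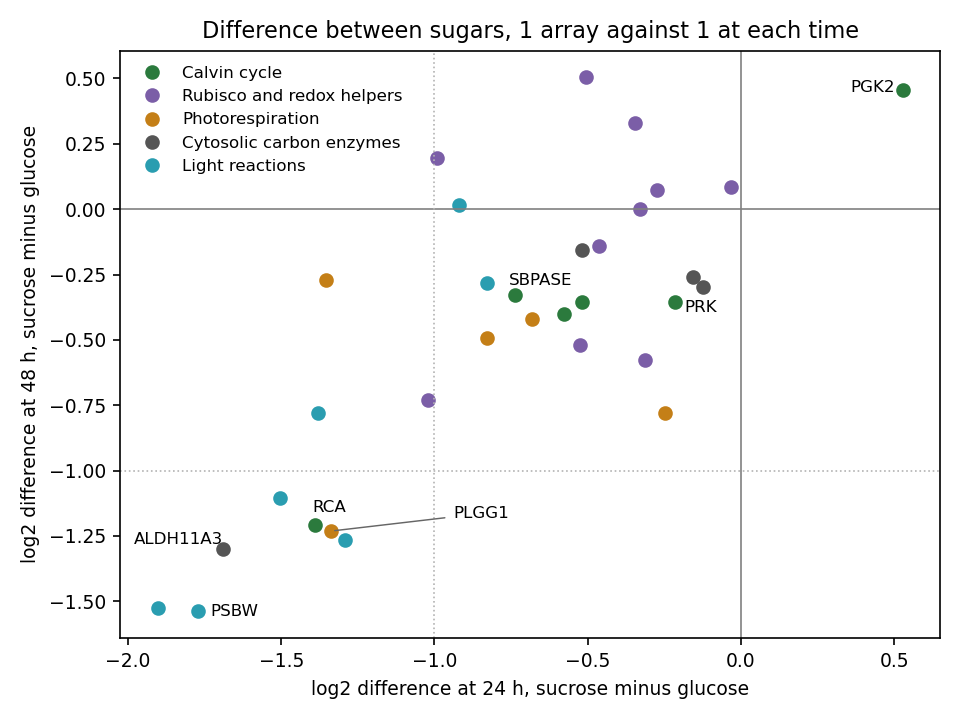
Sucrose minus glucose log2 difference at 24 h (horizontal) and 48 h (vertical), 1 array against 1, a point per measured gene coloured by list, with dotted lines at a 2-fold lower signal. RCA (-1.39, -1.21) lies with 4 light reaction genes, PLGG1 and ALDH11A3 past both dotted lines, PGK2 lies alone in the upper right (0.53, 0.46), and PRK (-0.22, -0.36) rests on the floor in sucrose and on signals near background in glucose.

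Among 10661 other tested probe sets with 1 gene, 3 of the 5 profiles over the 6 arrays nearest to RCA were those of photosynthesis genes. Likeness was the root mean square distance between log2 profiles, each centred on its own mean, so a small value means a similar shape. The nearest was PSBW (AT2G30570), a photosystem II subunit (distance 0.18). Then came AT4G29780 (0.18), AT5G54165 (0.27), the antenna gene LHB1B2 (AT2G34420; 0.28) and the antenna gene LHCB4.1 (AT5G01530; 0.29). PSBW was 12.56 and 12.37 at 0 h in glucose and sucrose, 9.56 and 7.79 at 24 h, and 9.29 and 7.76 at 48 h, with glucose above sucrose at both culture times as for RCA. The nearest to PRK were AT3G07195 (0.11), AT1G22810 (0.15), PIF7 (AT5G61270; 0.19), which encodes a phytochrome-interacting transcription factor, AT2G32880 (0.19) and AT1G22830 (0.21). Each of these was at the floor on 1 or more cultured arrays, so part of the likeness to PRK is a shared bound. RCA came 100th from PRK (distance 0.72), and PRK came 222nd from RCA.

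Of the neighbouring genes that could be tested, PLGG1 near PRK fell, and no tested neighbour of RCA passed. Several neighbours had no probe set of their own. AT1G32020 and AT1G32030, before PRK, had too few signals above the floor to be tested. PLGG1, whose fall is given above, lies 2 protein-coding genes beyond PRK on chromosome 1, and the next, AT1G32090, rose by 1.07 ± 0.20 at 24 h and 1.3 ± 0.20 at 48 h (adjusted p = 0.012 and 0.0070 in limma). AT2G39710, 3 genes before RCA, differed by 0.56 ± 0.34 and -0.63 ± 0.34, and BPM3 (AT2G39760), 3 genes beyond it, by -0.02 ± 0.28 and 0.11 ± 0.28. None of these 4 differences passed. In the RefSeq gene table each member's span overlaps that of 1 other protein-coding gene. The partner of RCA, AT2G39725, was 4.48 and 4.82 at 0 h, below the background control medians there, and between 5.04 and 5.42 on the cultured arrays, and its difference did not pass at 24 h (0.46 ± 0.15, adjusted p = 0.052 in limma). The partner of PRK, NSI (AT1G32070), had no probe set of its own. RefSeq lists 3 transcripts of RCA and 1 of PRK, and 1 probe set per gene cannot separate isoforms.

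Markers of other cell types moved in the same cultures. Of 10 xylem vessel markers 3 had a probe set, and their summed linear signal was 748 and 771 at 0 h, 721 and 464 at 24 h, and 3327 and 740 at 48 h, in glucose and sucrose. The members differed. GUT2 (AT1G27440), for xylan synthesis, was 6.47 and 7.26 at 0 h, 8.18 and 7.62 at 24 h, and 10.74 and 8.53 at 48 h, and it rose at 48 h (2.77 ± 0.48) without passing at 24 h (1.03 ± 0.48). IRX15-L (AT5G67210) differed by -0.98 ± 0.36 and 0.23 ± 0.36, and IRX15 (AT3G50220) was at the floor at 0 and 24 h. Of 8 phloem markers 2 had a probe set, both at the floor at 0 h with a sum of 59.6. Their sum was 175 in glucose and 117 in sucrose at 24 h, and it reached 378 and 276 by 48 h. OPS (AT3G09070), a protophloem regulator, rose at 24 h (1.92 ± 0.44; adjusted p = 0.022 in limma), and CLE45 (AT1G69588) was at the floor until 48 h. The 3 guard cell markers of 6 summed to 1904 and 1572 at 0 h, 364 and 676 at 24 h and 458 and 326 at 48 h. GC1 (AT1G22690) carried most of that sum at 0 h and fell (-2.51 ± 0.49 at 24 h). SPCH (AT5G53210) was at the floor in culture. Its 0 h signals, 5.51 and 6.05, were near the background control medians there (6.07 and 5.51). FMA (AT3G24140) was 7.80 and 7.91 at 0 h and 7.48 and 7.87 at 24 h and did not pass there (-0.18 ± 0.31, adjusted p = 0.659 in limma). None of the 6 epidermis markers had a probe set of its own. PRK and RCA were lower than at 0 h on all 24 h arrays, on which OPS was already higher. The part of cell makeup in the fall of PRK and RCA was not tested.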

How the data were processed

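The authors deposited a log2 signal for each probe set and array. GCOS made it, per the submitters' processing notes. For its version, background correction and normalization, nothing was given in the sources used here. Base 2 was taken from the values, whose highest, 14.2, is 19217 as log2, within a 16-bit scanner. Per the labels' protocols, RNA was amplified before biotin labelling, which can change relative levels. Of 38310 non-control probe sets, 16722 had 1 gene in the platform table, and 16574 of these matched RefSeq (TAIR10.1), whose symbols were used. Trimmed means (2% at each end) ranged from 166.6 to 207.4 on the linear scale, past a 5% tolerance, so arrays were scaled to their mean. Signals were raised to the floor, and testing required a signal above it on 2 or more arrays.

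limma 3.58.1 (R 4.3.3) fitted the 3 times and, for cultured arrays, a sugar difference, with an intensity trend, 2 residual and 3.24 prior degrees of freedom. The residual came from the 0 h pair and the change of the sugar difference. Differences at each time came from a second model with 1 residual degree of freedom. No label says whether arrays came from separate cultures, so the spread behind each p-value is that of these arrays alone and may be technical. The scripts were tested on simulated data. The members and gene lists were chosen with earlier results of these data known. Genes named are the members, list genes with their own probe set, the 5 nearest profiles per member, and neighbours in RefSeq order, the last chosen after the data were seen. Alternatives covered scaling, floor, probe sets, trend, sugar term and left-out arrays.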

Additional observations from a re-analysis of the deposited data

How the results depend on the processing

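The falls of PRK and RCA at 24 and 48 h kept their direction under every scaling, floor, filter, model and left-out array run, and passed in all but the fits without an array of the time tested. As deposited, the median over all tested probe sets at 24 h was 0.36 on the log2 scale against 0.10 after scaling, with 3881 lower and 8019 higher calls against 5120 and 6248. Relative to that median, PRK was -5.28 as deposited and -5.23 scaled, and RCA -3.89 and -3.92.

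Several values near 0 changed sign. The 48 h minus 24 h difference of PRK was -0.016 as deposited and -0.0059 with median centring. Its change of the sugar difference was 0.031 as deposited, 0.012 with median centring and 0.42 with a 20th percentile floor or none. Fits without 1 array gave -0.16 to 0.021 for RCA from 24 to 48 h. With only 1-gene probe sets in the fit, 4473 passed at 24 h and 5011 at 48 h of 10662 tested, against 11368 and 10852 of 25826. With no floor, 169 passed from 24 to 48 h and 4 between sugars. Quantile normalization gave 2 cytosolic genes lower at 24 h against 1.

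Without 1 array, PRK ranged from -5.20 to -5.06 at 24 h and from -5.12 to -4.99 at 48 h, and RCA from -3.91 to -3.73 and from -3.98 to -3.80. Counts of probe sets passing ranged from 0 to 9079 at 24 h, 0 to 8394 at 48 h, 0 to 387 between these times and 0 to 4 between sugars. Genes passing as lower ranged from 0 to 5 for the Calvin cycle, 0 to 8 for Rubisco and redox helpers, 0 to 5 for photorespiration and 0 to 1 for cytosolic enzymes, at 24 and at 48 h alike. The fits without an array of the time tested gave the 0s, with 1 fewer sample. RCA minus PRK shifted by 1.02 to 1.41, and by 1.63 with no floor.

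No paired analysis was possible because each sugar and time had 1 array and the labels number no replicates. A fit with sugar as a block over all 6 arrays gave the same 24 h differences (adjusted p = 0.0014 for PRK and 0.0024 for RCA in limma). The cause of the other changes was not tested. PRK in sucrose is limited by its signal over background.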
